A study of Mus musculus with 16 samples.

Results

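The genes described here are 10 genes of fibrillar collagen and fibroblast matrix, namely Col1a1, Col1a2, Col3a1, Col5a1, Col5a2, Postn, Lum, Dcn, Fn1 and Thy1. They were listed by gene name, with no threshold on their values but with earlier results of these data known, out of the 20968 genes named on the array, and each had 1 probe and 1 spot per array. The comparison asked whether genes that were higher after Ptn_VP64 looked like RNA of fibroblasts or like a mesenchymal change. All samples were mouse E14 embryonic stem (ES) cells kept in serum and LIF, a cytokine that holds them undifferentiated. Every culture received a plasmid by lipofection, was sorted for eGFP after 24 h and was harvested at 48 h. The EGFP group received the fluorescent protein alone. The Ptn_VP64, Ptn_DEL and Ptn_Delta groups received a TALE, a protein engineered to bind chosen DNA, here Ptn, the gene of the growth factor pleiotrophin. The TALE of the Ptn_VP64 group carried VP64, an artificial activator of transcription; the labels do not say what DEL and Delta stand for. Transfection was transient, all cells came from the E14 line, and each group was hybridised to 4 one-colour arrays that held 2 biological and 2 technical replicates in an order that is not stated. P-values therefore measure the spread between arrays that may in part be technical.

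Type I collagen is a triple helix of chains from Col1a1 and Col1a2, and it is the main fibre of skin, tendon and bone. Type III collagen (Col3a1) and type V collagen (Col5a1, Col5a2) assemble into the same fibrils, and type V is known for starting them. Lumican (Lum) and decorin (Dcn) are small proteoglycans that bind fibrils and limit their width, and periostin (Postn) is a matricellular protein that binds collagen. Fibronectin (Fn1) is the glycoprotein on which cells lay down collagen, and Thy1 is a surface glycoprotein used to recognise fibroblasts. Undifferentiated ES cells make fibronectin and basement membrane proteins, whereas dense fibrillar collagen is typical of fibroblasts.

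Array brightness, taken as the 75th percentile of the processed signal, was 209.3 to 1253 over the 16 arrays, and 27.1 to 43.8% of spots were well above background. Levels are given as log2 of the processed signal minus log2 of the array's 75th percentile, so that 0 is that percentile. The number of arrays limits the precision of every value. Ptn itself, with all spots counted, read from 2.61 to 3.67 on the 4 Ptn_VP64 arrays and no higher than 0.99 on the other 12, and 3 of the 4 Ptn_VP64 spots were marked as non-uniform or outlying. ES cell markers were read in all groups: none of the 14 was dark throughout, 9 were well above background on at least 12 arrays, and Pou5f1 was so on all 16. The arrays carried broad bright and dim patches that took in from 0.64 to 35.6% of the spots of an array. A pair of readings is therefore given side by side. The averaged test joined the 4 arrays of a group into 2 pair means, did so for all 3 ways of pairing them and kept the largest p. The patch-corrected fit subtracted the local shift, left out spots deep in patches and took all arrays as replicates, which makes its p-values smaller than they should be to a degree that is not known. Each construct lay in the same column of both slides, so construct and slide column cannot be told apart.

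The upstream sequences of 3 collagen genes with measured levels are shown because these genes were compared with each other and differ sharply in base composition. Of the 10 genes, 4 (Col1a2, Col3a1, Col5a1 and Postn) matched the RefSeq promoter table of the build GRCm38.p6. Each line gives the 250 bases before the annotated start, 5′ to 3′ on the gene's plus strand, with capitals marking the CCAAT box, the core TATAA of a TATA box and the letters GGGCGG of a GC box, searched on both strands.
Col1a2, chr6:4505368-4505617: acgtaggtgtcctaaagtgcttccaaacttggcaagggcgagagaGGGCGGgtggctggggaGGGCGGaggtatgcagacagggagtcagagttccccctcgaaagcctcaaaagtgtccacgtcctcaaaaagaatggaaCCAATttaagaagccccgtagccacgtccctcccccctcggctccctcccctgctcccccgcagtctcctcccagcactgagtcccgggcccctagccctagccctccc
Col3a1, chr1:45311288-45311537: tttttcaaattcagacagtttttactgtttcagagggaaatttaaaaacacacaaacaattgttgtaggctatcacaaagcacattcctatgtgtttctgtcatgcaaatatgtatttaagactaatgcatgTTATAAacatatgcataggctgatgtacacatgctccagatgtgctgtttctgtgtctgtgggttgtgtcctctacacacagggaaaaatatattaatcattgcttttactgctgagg
Col5a1, chr2:27886175-27886424: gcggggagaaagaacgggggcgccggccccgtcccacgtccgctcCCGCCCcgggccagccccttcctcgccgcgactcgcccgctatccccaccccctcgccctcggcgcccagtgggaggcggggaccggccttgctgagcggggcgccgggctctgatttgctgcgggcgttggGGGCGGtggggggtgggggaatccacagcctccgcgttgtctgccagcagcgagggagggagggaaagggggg
The Col1a2 window held 11 CpG dinucleotides, a CCAAT match starting 109 bases before the start and 2 matches to GGGCGG. The Col3a1 window held 0 CpG, as did 7.87% of the 32851 promoters of the table, and its TATAA match and the reverse complement of the same motif overlapped. The Col5a1 window held 28 CpG, and 93.2% of promoters held at most that many. Over all promoters, 33.8% held the first motif, 22.8% the second and 32.7% the third in the same window on either strand. Such a match describes letters only.

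Signal was found on enough arrays for 6 of the 10 genes to be tested. A gene entered the tests when its probe was well above background and unmarked on at least 4 of the 16 arrays, and 12602 of all named genes did so. Fn1 was well above background on all 16 arrays, Col3a1 on 13, Col5a1 and Thy1 on 10, Col1a1 on 8 and Col1a2 on 7. Dcn was so on 2 arrays, Lum on 1, and Postn and Col5a2 on 0. All 6 would also pass on the 12 arrays without VP64, whereas 405 of the 12602 genes passed only with the Ptn_VP64 arrays counted, and a gene of that kind had to be higher there. The number of genes that passed is therefore no evidence of a change.

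**Figure D1:**
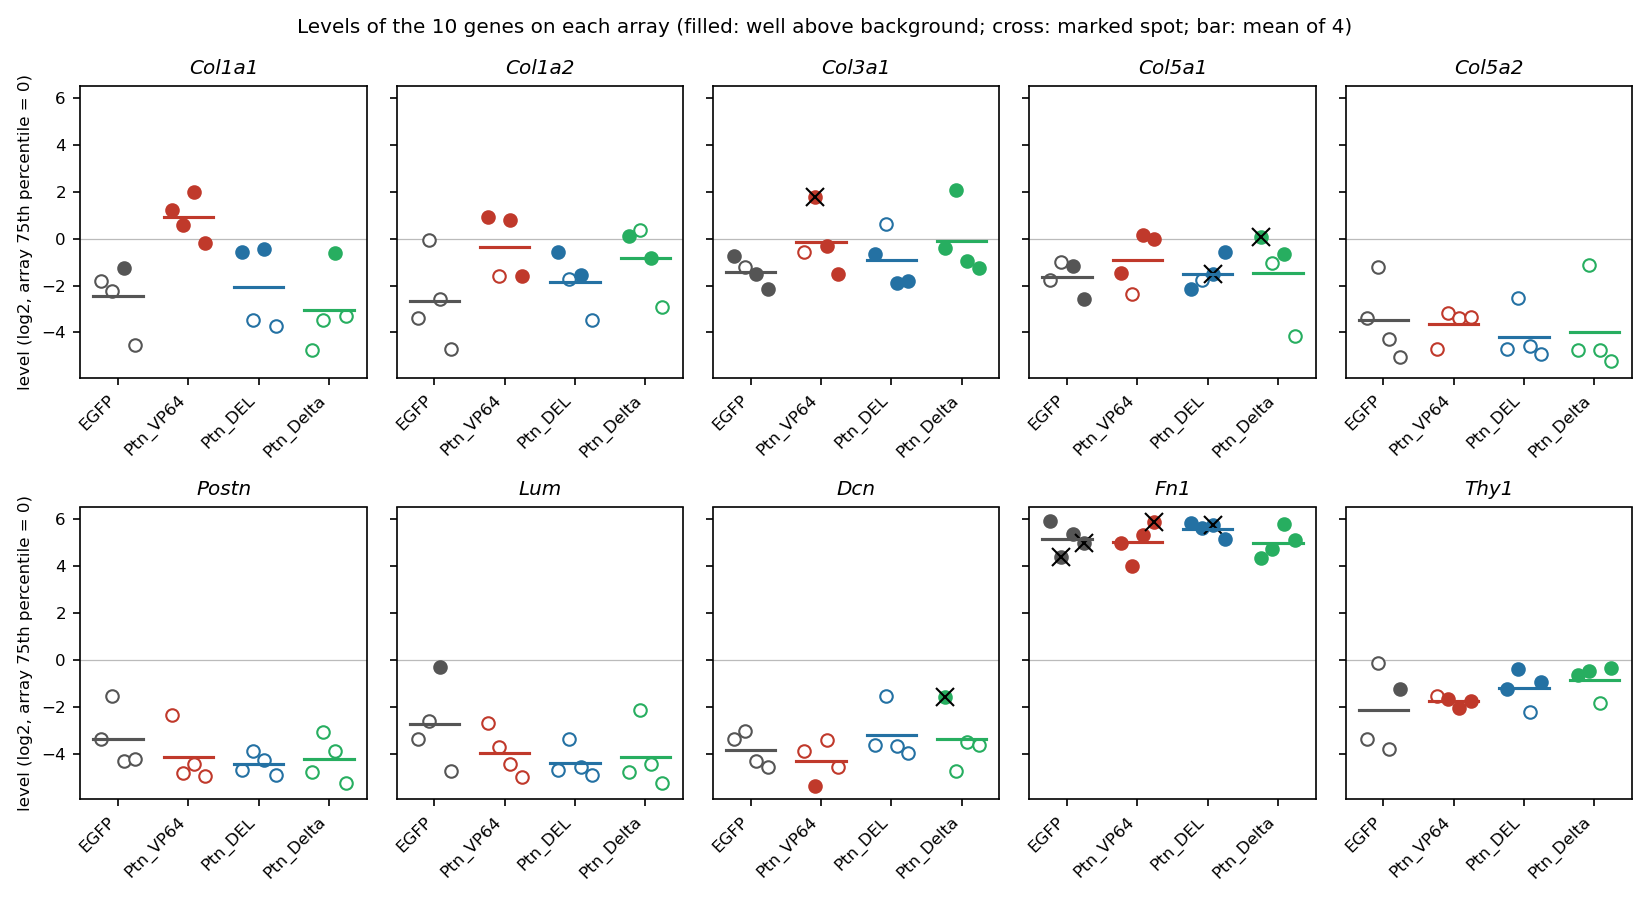
Levels of each of the 10 genes on the 16 arrays, as log2 of the signal with the array's 75th percentile at 0, by construct. Filled points were well above background, crosses were marked spots and bars are means of 4 arrays; the 4 Ptn_VP64 points of Col1a1, from -0.16 to 2.01, lie above its 12 other points, while Col5a2 and Postn have no filled point.

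Col1a1, the chain that makes up most of type I collagen, was the member with the widest separation. It read 1.22, 0.59, 2.01 and -0.16 on Ptn_VP64 replicates 1 to 4, each well above background. On the EGFP arrays it read -1.82, -2.22, -1.24 and -4.53, of which only replicate 3 was well above background. On the Ptn_DEL arrays it read -0.59, -3.46, -0.46 and -3.72, with replicates 1 and 3 well above background. All 4 Ptn_VP64 arrays thus lay above all 12 others, and the other 3 groups overlapped each other. On Ptn_Delta it read -4.76, -3.46, -0.61 and -3.30, with only replicate 3 well above background. The spot of Ptn_Delta replicate 1 lay in a dim patch with a local shift of -5.39, and its level became -0.28 once the shift was subtracted. With the local shift subtracted on every array, the lowest Ptn_VP64 value was -0.25 and the highest of the 12 others was this -0.28, so the groups stayed apart by 0.03. In bulk RNA, more cells of a type and more RNA per cell cannot be told apart.

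The mean level of Col1a1 was 0.91 ± 0.92 (SD, n = 4 arrays) in Ptn_VP64 and -2.45 ± 1.44 (SD, n = 4) in EGFP. In the averaged test the log2 difference from EGFP was 3.37 ± 1.06 (SE), with a limma p of 0.012 and an adjusted p of 1. Against Ptn_DEL it was 2.97 ± 1.06 and against Ptn_Delta 3.95 ± 1.06, with adjusted p of 1.00 in each. The patch-corrected fit gave 3.00 ± 1.00 against EGFP with an adjusted p of 0.131, 3.13 ± 1.00 against Ptn_DEL with 0.241, and 3.42 ± 1.08 against Ptn_Delta with 0.216. In these fits Col1a1 was not called in any comparison by either reading. The size of these differences rests on dim spots, since 8 of the 12 arrays without VP64 were not well above background. The Ptn_VP64 arrays exceeded EGFP by 2.93 on slide 1 and by 3.80 on slide 2. Within the row of the slides that held replicates 1 and 3 the difference was 3.14, and within the row that held replicates 2 and 4 it was 3.59. In Ptn_DEL the arrays numbered 1 and 3 read higher than those numbered 2 and 4, as they did in Ptn_VP64 and EGFP. Of the 12602 genes, 0.317% had all 4 Ptn_VP64 arrays above all 12 others, and by the width of the gap Col1a1 stood 21st of these 40. Against EGFP alone 4.54% of genes were so separated, against Ptn_DEL 1.26% and against Ptn_Delta 1.21%. All 4 Ptn_DEL arrays lay above all 4 EGFP arrays for 3.35% of genes, and all 4 Ptn_Delta arrays for 4.0%. A separation from EGFP alone was thus not particular to Ptn_VP64.

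Col1a2, the other chain of type I collagen, had its highest mean in Ptn_VP64, but the groups overlapped. It read 0.91, -1.60, 0.79 and -1.57 on Ptn_VP64, where replicate 2 was not well above background. On EGFP it read -3.37, -0.04, -2.59 and -4.69, and none of the 4 was well above background. The 2 brightest Ptn_VP64 arrays lay above every EGFP array, and the other 2 lay below EGFP replicate 2. Ptn_DEL ranged from -3.46 to -0.58 and Ptn_Delta from -2.91 to 0.35, each with 2 arrays well above background. As no EGFP array resolved the probe, the difference from EGFP is given at a bound on the processed signal. At that bound Col1a2 was 2.23-fold higher in Ptn_VP64. Ptn_VP64 replicate 2 was itself not well above background, so this is no strict lower limit. No bound is given for Ptn_Delta, because its replicate 2 was not well above background and lay in a bright patch with a local shift of 3.64. The bound sets the bright group's mean against, on each dim array, the higher of the spot and the dimmest signal well above background. The averaged test gave 2.31 ± 0.90 (SE) for Ptn_VP64 minus EGFP, with a limma p of 0.0307 and an adjusted p of 1, and normexp background correction lowered the difference to 0.74, under the bound. It gave 1.46 ± 0.90 against Ptn_DEL and 0.45 ± 0.90 against Ptn_Delta, with adjusted p of 1.00 in each. On slide 1 alone the difference from EGFP was 1.36 and on slide 2 alone 3.25, and the patch-corrected fit gave 2.17 ± 1.11 with an adjusted p of 0.373.

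The chains of type I collagen are made together in fibroblasts, and their levels on these arrays were compared as a description. Over the 11 arrays where neither spot lay in a patch, the patch-corrected levels of Col1a1 and Col1a2 had a Pearson r of 0.93, and without patch correction r was 0.45 over 16 arrays. Col1a2 and Col3a1 had an r of 0.87 over 10 arrays after correction and 0.56 over 15 before it. The arrays share constructs, slides and rows, and many of the points were dim, so no test was made. With the local shift subtracted, Ptn_VP64 replicates 1 and 3 held the highest values of both genes, at 1.57 and 1.98 for Col1a1 and at 1.41 and 0.83 for Col1a2. Ptn_VP64 replicates 2 and 4 then read -0.25 and -0.08 for Col1a1 and -1.59 and -1.40 for Col1a2, beside the Ptn_DEL and Ptn_Delta arrays numbered 1 and 3. The genes most like Col1a1 over at least 14 arrays were Septin4 (r = 0.97, 14 arrays), Csf1 (r = 0.97, 15 arrays) and Ak8 (r = 0.96, 15 arrays), among 2072 genes compared. No other member had 14 patch-corrected arrays.

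**Figure D2:**
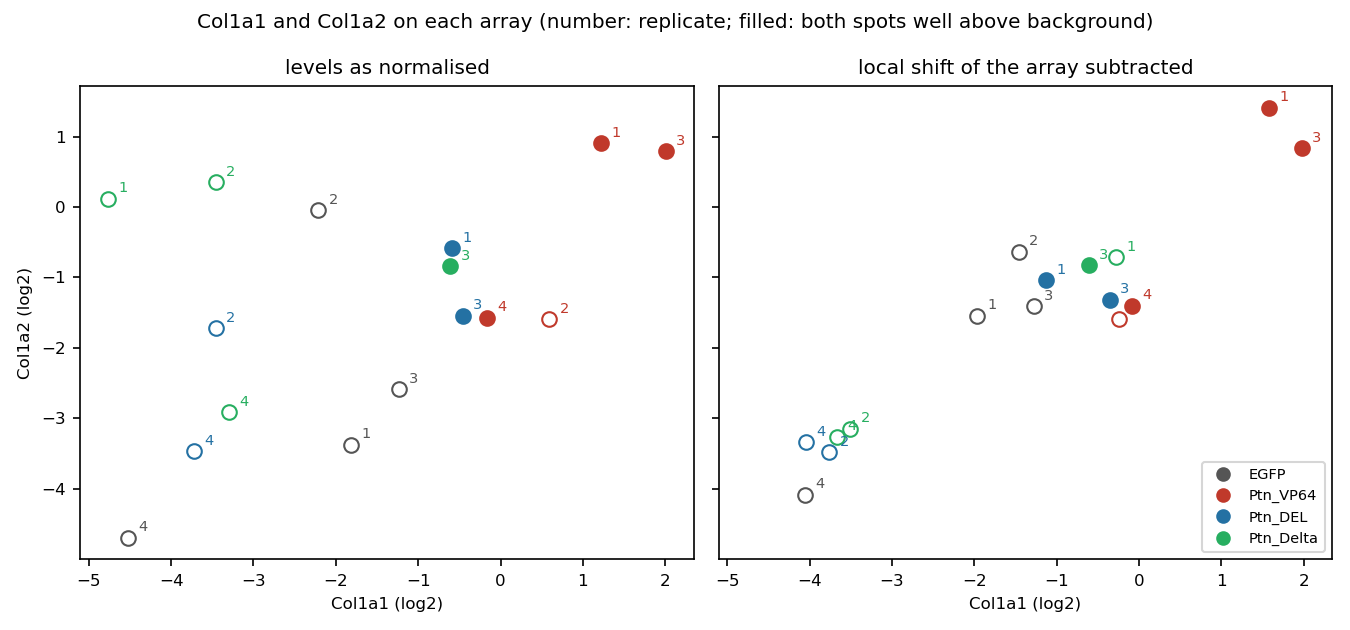
Col1a1 level (horizontal, log2) against Col1a2 level (vertical, log2) on each of the 16 arrays, coloured by construct and numbered by replicate, before and after the local shift of the array was subtracted; filled points had both spots well above background. Ptn_VP64 replicates 1 and 3 lie at the upper right in both panels, and after subtraction the arrays of Ptn_DEL and Ptn_Delta numbered 2 and 4 lie at the lower left.

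Of the chains that join type I collagen in fibrils, Col3a1 was not separated between groups. It read -0.58, 1.79, -0.31 and -1.49 on Ptn_VP64 and -0.75, -1.22, -1.52 and -2.14 on EGFP. The high value of Ptn_VP64 replicate 2 was a marked spot and was left out of the tests. Ptn_Delta replicate 2 reached 2.10 in a bright patch and became 0.42 with the shift subtracted. The averaged test gave 0.44 ± 0.66 for Ptn_VP64 minus EGFP and the patch-corrected fit 0.58 ± 0.35, with adjusted p of 1 and 0.470. Against Ptn_DEL the sign depended on the correction, at -0.04 ± 0.66 in the averaged test and 0.79 ± 0.36 in the patch-corrected fit.

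Col5a1, the chain shared by the usual forms of type V collagen, read -1.47, -2.35, 0.18 and -0.03 on Ptn_VP64 and -1.75, -0.99, -1.16 and -2.56 on EGFP. Its 2 highest Ptn_VP64 arrays were those of slide 2, and the groups overlapped. The difference from EGFP was 0.70 ± 0.97 in the averaged test, with an adjusted p of 1, and 1.48 ± 0.81 in the patch-corrected fit, with an adjusted p of 0.414. It was -0.54 on slide 1 alone and 1.93 on slide 2 alone. Col5a2, which lies beside Col3a1 on chromosome 1 and supplies the other chain of type V collagen, was not well above background on any array, so neither its level nor a difference was measured.

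Fn1 was bright in every group, and the groups overlapped. It read from 4.41 to 5.94 in EGFP, from 4.04 to 5.87 in Ptn_VP64, from 5.16 to 5.86 in Ptn_DEL and from 4.37 to 5.79 in Ptn_Delta. Of its 16 spots, 4 were marked and left out of the tests. The averaged test gave -0.74 ± 0.66 for Ptn_VP64 minus EGFP with an adjusted p of 1. The patch-corrected fit, in which the SE fell to 0.36, gave -0.12 with an adjusted p of 0.921. A p-value of this size does not show that the groups were alike.

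Thy1 was dim and its direction changed with the processing. On Ptn_VP64 it read -1.51, -1.65, -2.05 and -1.73, and on EGFP -3.37, -0.14, -3.80 and -1.23. EGFP spanned the whole range of the other groups, and only its replicate 4 was well above background. EGFP replicates 1 and 3 lay in patches. The averaged test gave 0.40 ± 0.92 for Ptn_VP64 minus EGFP, with an adjusted p of 1. The patch-corrected fit gave -1.34 ± 0.57, with an adjusted p of 0.273. Ptn_DEL ranged from -2.22 to -0.36 and Ptn_Delta from -1.85 to -0.33.

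The proteins that decorate fibrils gave no usable signal. Postn ranged from -5.23 to -1.51 over the 16 arrays without a spot well above background. Lum, which lies beside Dcn on chromosome 10, was well above background on EGFP replicate 3 alone, at -0.28, and at or under -2.15 on the other arrays. Dcn was well above background on Ptn_VP64 replicate 2, at -5.36 on an array whose dimmest signal well above background was -7.64, and on a marked spot of Ptn_Delta replicate 1, at -1.56. Many dim spots on arrays that the scanner software had not detrended sit at a shared lowest value, and such values have no order.

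Read together, 0 of the 6 tested genes were called in any of the 6 comparisons by the averaged test. In each comparison it called 0.0% of all genes. It also called none of the changes put into simulated arrays, so its count of 0 does not show that a gene was unchanged. At an unadjusted p under 0.05, Col1a1 and Col1a2 were higher in Ptn_VP64 than in EGFP, as were 3.16% of all genes. By the same measure 2.54% of all genes were higher in Ptn_DEL than in EGFP, and 3.84% in Ptn_Delta. In Ptn_VP64 Col1a1 was also higher than in Ptn_DEL, as were 0.786% of all genes, and than in Ptn_Delta, as were 1.18%. The patch-corrected fit called 3.4% of 11040 genes for Ptn_VP64 minus EGFP (2.5% higher), 0.879% against Ptn_DEL and 0.725% against Ptn_Delta, and again 0 of the 6. It called 0.0725% for Ptn_DEL minus EGFP, 0.0272% for Ptn_Delta minus EGFP and 0.0% for Ptn_DEL minus Ptn_Delta, with 0 of the 6 in each. The median difference of the 6 genes for Ptn_VP64 minus EGFP was 0.57 in the averaged test, beside 0.08 over all genes, and 5 of the 6 were higher. In the patch-corrected fit it was 1.03, beside 0.02 over all genes, and 4 of the 6 were higher. In Ptn_DEL minus EGFP their averaged differences ran from -0.03 for Fn1 to 0.95 for Thy1, and in Ptn_Delta minus EGFP from -0.65 for Fn1 to 1.86 for Col1a2. The patch-corrected fit turned Thy1 to -1.26 ± 0.60 in Ptn_DEL minus EGFP and to -1.03 ± 0.60 in Ptn_Delta minus EGFP, and it gave 0.97 ± 1.17 for Col1a2 in the latter. These comparisons share their control arrays.

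**Figure D3:**
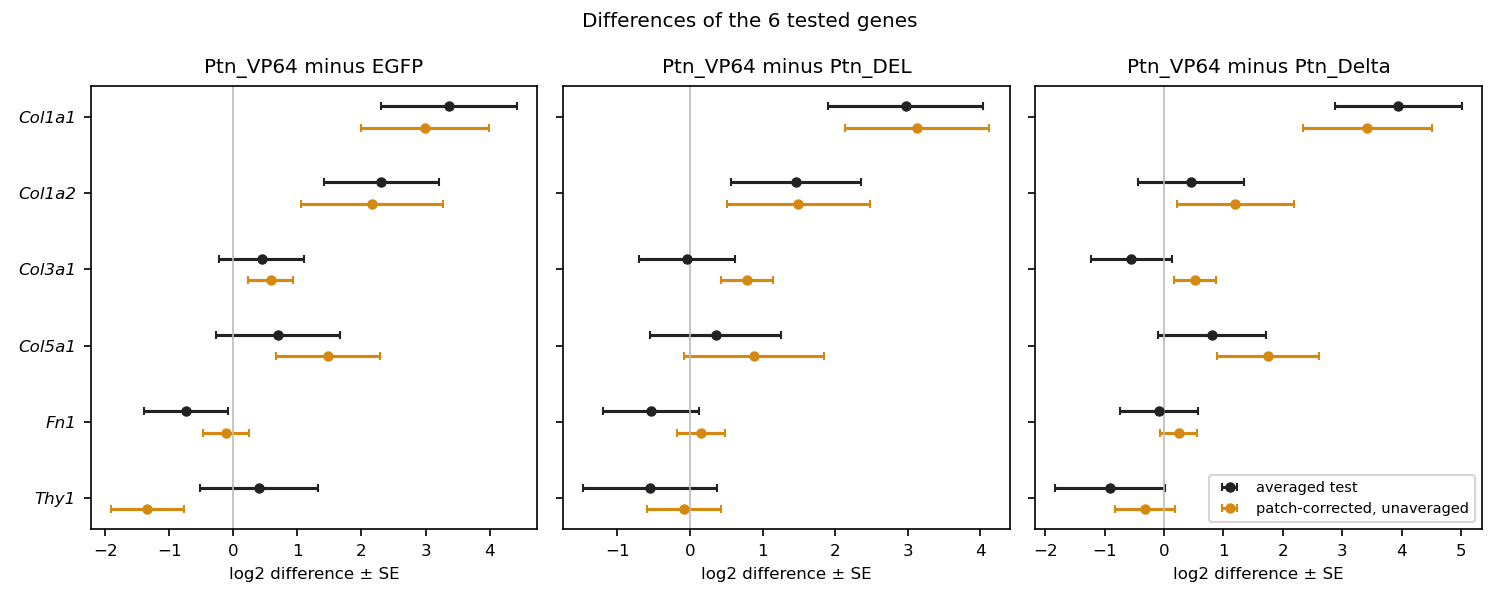
Log2 differences with SE (horizontal) of the 6 tested genes for Ptn_VP64 against each other group, from the averaged test (black) and the patch-corrected fit (orange). Col1a1 lies between 2.97 and 3.95 in all 6 readings, and Thy1 against EGFP lies at 0.40 in black and at -1.34 in orange.

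Enzymes and chaperones that make collagen were described next, from a list of 19 genes. Of the 17 tested, 15 were higher in Ptn_VP64 than in EGFP in the averaged test and the median was 0.67, beside 0.08 over all genes, with 0 called. The patch-corrected fit called 3 of 16 higher and 0 lower, beside 2.5% of all genes called higher. Serpinh1, the chaperone of procollagen also known as Hsp47, rose by 2.23 ± 0.33 (adjusted p = 0.00663) and also exceeded Ptn_DEL by 1.69 ± 0.30 (adjusted p = 0.0358). P3h4, a partner of the collagen-modifying complex in the endoplasmic reticulum, rose by 1.04 ± 0.15 (adjusted p = 0.00283). It also exceeded Ptn_DEL by 0.86 ± 0.15 (adjusted p = 0.0201), a call kept in 11 of 16 cases with 1 array left out. P4ha1, a catalytic subunit of prolyl 4-hydroxylase, was at least 2.29-fold higher than in EGFP, where no unmarked spot was well above background (adjusted p = 0.0442). P4ha1 also exceeded Ptn_DEL, where only 2 arrays were well above background, by 2.09 ± 0.35 (adjusted p = 0.0323, kept in 7 of 16 cases). With 1 array left out, the adjusted p of P4ha1 against EGFP was up to 0.238. Its call against EGFP was lost without EGFP replicate 3, any Ptn_VP64 replicate, Ptn_DEL replicate 1 or Ptn_Delta replicate 2, 3 or 4. Those of Serpinh1 and P3h4 against EGFP were kept whichever of the 16 arrays was left out, and that of Serpinh1 against Ptn_DEL was kept in 7 of 16 cases and lost without EGFP replicate 4, Ptn_VP64 replicate 1 or 3, any Ptn_DEL replicate or Ptn_Delta replicate 1 or 3 (adjusted p of up to 0.173). The summed linear level of the list ran from 78.1 to 148 in EGFP and from 136 to 179 in Ptn_VP64, so the groups overlapped.

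Among the 38 other collagen genes on the array, 11 were tested, 5 were higher in Ptn_VP64 than in EGFP and the median was -0.11. The patch-corrected fit called 3 of 11, all higher, beside 2.5% of all genes. Of the 11, Col4a4 and Col8a2 passed the filter only with the Ptn_VP64 arrays. Col4a1 and Col4a2, the chains of basement membrane collagen, rose by 2.15 ± 0.25 (adjusted p = 0.000878) and 2.19 ± 0.38 (adjusted p = 0.0123) against EGFP. Both also exceeded Ptn_DEL, by 1.51 ± 0.25 and 2.08 ± 0.38, and Ptn_Delta, by 1.27 ± 0.25 and 1.94 ± 0.38, with adjusted p from 0.017 to 0.0486. Each of these 4 calls was lost without Ptn_VP64 replicate 1 or 3 or Ptn_DEL replicate 1, and those of Col4a2 and the one of Col4a1 against Ptn_Delta without several other arrays (adjusted p of up to 0.175). The call of Col4a1 against EGFP was kept whichever array was left out, and that of Col4a2 had an adjusted p of 0.05 without Ptn_VP64 replicate 3. Col7a1, the anchoring fibril collagen, rose by 1.16 ± 0.26 (adjusted p = 0.0351), a call lost without EGFP replicate 2 or 4, Ptn_VP64 replicate 1, 3 or 4, Ptn_DEL replicate 1 or 3, or Ptn_Delta replicate 4 (adjusted p of up to 0.11). Of the other 5 fibrillar collagen genes, only Col2a1, the cartilage chain, was tested, with -0.54 ± 0.99 in the averaged test. Of the 12 small leucine-rich proteoglycans on the array only Podn was tested, at -0.06 ± 0.60.

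Of 13 genes that trim or crosslink collagen, 7 were tested, 4 were higher and the median was 0.23. Bmp1, the protease that removes the C-terminal propeptide of procollagen, rose by 1.01 ± 0.21 in the patch-corrected fit (adjusted p = 0.0188), a call lost without Ptn_VP64 replicate 3 (adjusted p = 0.0877). The averaged test gave 3.78 ± 1.05 for Bmp1, with an adjusted p of 0.905. It held only 1 unmarked Ptn_VP64 array for Bmp1 and the patch-corrected fit held 3, so the readings do not rest on the same spots. Of 14 matrix proteases and inhibitors, 9 were tested and 7 were higher, with a median of 1.23, and Plat passed the filter only with the Ptn_VP64 arrays. Adamts1, a secreted metalloprotease, was at least 2.29-fold higher in Ptn_VP64 (adjusted p = 0.00132) and at least 2.40-fold higher in Ptn_DEL (adjusted p = 0.0456) than in EGFP. The first call was kept whichever array was left out, and the second was kept in 3 of 16 cases (adjusted p of up to 0.179). Timp3, an inhibitor of metalloproteases held in the matrix, rose by 1.52 ± 0.31 (adjusted p = 0.021, and 0.0517 without EGFP replicate 2). The patch-corrected fit called 2.5% of all genes higher in Ptn_VP64 than in EGFP.

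Among 15 receptors of collagen and fibronectin on the array, 9 were tested, 6 were higher and the median was 1.40. The patch-corrected fit called 2.5% of all genes higher in Ptn_VP64 than in EGFP. Among these receptors it called Itga1, a collagen-binding integrin chain (adjusted p = 0.0142), and Itga8, a chain that binds fibronectin (adjusted p = 0.0109). No EGFP array resolved either gene, and Itga8 was at least 2.11-fold higher in Ptn_DEL than in EGFP. At the bound Itga8 was 1.97-fold higher in Ptn_VP64 and 3.13-fold higher in Ptn_Delta, with a marked spot counted in each group. Without that spot its mean level fell from -1.39 to -1.78 in Ptn_VP64 and from -0.72 to -1.03 in Ptn_Delta. Only 3 arrays of each of these groups were counted as well above background, so their folds are no strict lower limits. The call of Itga8 in Ptn_VP64 was lost without EGFP replicate 2 (adjusted p = 0.0519), that in Ptn_DEL was kept in 7 of 16 cases, and that in Ptn_Delta was lost without EGFP replicate 2 or Ptn_Delta replicate 2 or 4. For Itga1 no fold is given, because its bound fell under 1, its call was lost without Ptn_VP64 replicate 3 (adjusted p = 0.056), and it passed the filter only with the Ptn_VP64 arrays. Of 18 genes of the TGF-beta pathway, a main inducer of collagen in fibroblasts, 16 were tested and 14 were higher, with a median of 0.85. Tgfbr2, a receptor of the pathway, was 1.58-fold higher at the bound in Ptn_VP64 than in EGFP (adjusted p = 0.0101). No EGFP array resolved it and only 3 Ptn_VP64 arrays did, so this is no strict lower limit. Tgfbr2 and Tgfbr3 passed the filter only with the Ptn_VP64 arrays, so that their place among the higher genes was set by the filter.

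Of 24 fibroblast and stromal markers on the array, 12 were tested, 7 were higher and 5 lower in Ptn_VP64 than in EGFP, and the median was 0.02 beside 0.08 over all genes, with 0 called in either reading. Of the 24, 5 were not well above background on any unmarked spot of the 16 arrays, namely Pdgfrb and Fap, surface proteins of stromal cells, Prrx1, a mesenchymal transcription factor, Col6a3 and Dpt. Pdgfra, the receptor that marks many fibroblasts, was -1.12 ± 0.81 in the averaged test. Cdh11, a cadherin of mesenchymal cells, was 1.37 ± 0.78, Sfrp2 2.88 ± 1.64 and Efemp1, which passed the filter only with the Ptn_VP64 arrays, 1.51 ± 0.92. The mean level of Sfrp2 was -1.92 in EGFP, 0.96 in Ptn_VP64, 2.29 in Ptn_DEL and 2.30 in Ptn_Delta. Sfrp2 rested on 2 unmarked EGFP arrays, with an SD of 3.35, and on 2 in Ptn_VP64. In the same order of groups Cdh11 had -3.47, -1.93, -2.64 and -2.01, and Efemp1 had -3.91, -2.40, -3.41 and -3.83. The summed level of the list ran from 7.79 to 10.8 on Ptn_VP64 arrays and from 5.78 to 16.4 on EGFP arrays.

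Of 8 myofibroblast genes, which serve contraction, 6 were tested and all 6 were higher in Ptn_VP64 than in EGFP in the averaged test, with a median of 3.23 and 0 called. Myl9, a myosin light chain, rose by 2.48 ± 0.42 in the patch-corrected fit (adjusted p = 0.0123), a call lost without EGFP replicate 4 or Ptn_VP64 replicate 3 (adjusted p of up to 0.0619). Cnn1, an actin-binding calponin of smooth muscle, was 4.36 ± 1.13 in the averaged test with an adjusted p of 0.834. Tagln, another actin-binding protein, was 3.54 ± 1.73 with an adjusted p of 1. With marked spots left out, Cnn1 rested on 2 EGFP and 3 Ptn_VP64 arrays, Tagln on 2 and 2, and Myl9 on 4 and 2. The mean level of Cnn1 was -2.99 in EGFP, 1.02 in Ptn_VP64, 0.50 in Ptn_DEL and 0.48 in Ptn_Delta. In the same order Myl9 had -1.01, 2.93, 1.76 and 1.88, and Tagln had 1.74, 5.28, 2.67 and 2.19. Only 1 EGFP array was well above background for Cnn1, so the size of its difference rests on a dim spot. The summed level of the list ran from 59.2 to 221 on Ptn_VP64 arrays and from 14.6 to 29.9 on EGFP arrays, which do not overlap. On Ptn_DEL it ran from 15.6 to 58.7 and on Ptn_Delta from 23.7 to 66.8. Of single genes, 4.54% had all 4 Ptn_VP64 arrays above all 4 EGFP arrays, and no such share was made for list sums.

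Of 8 transcription factors of the change from epithelial to mesenchymal cells, 5 were tested and 3 were lower in Ptn_VP64 than in EGFP, and the patch-corrected fit called Zeb1, a repressor of epithelial genes, which fell by 1.30 ± 0.27 on the log2 scale (adjusted p = 0.0333). That call was lost without EGFP replicate 3 or 4, Ptn_VP64 replicate 1, 3 or 4, or Ptn_DEL replicate 1 or 3, with an adjusted p of up to 0.124. The averaged test gave -0.70 ± 1.03 for Zeb1, and both readings held only 2 EGFP arrays for it. The mean level of Zeb1 was 0.63 in EGFP, -0.67 in Ptn_VP64, 0.10 in Ptn_DEL and -0.58 in Ptn_Delta. Of all genes, 0.897% were called lower in Ptn_VP64 than in EGFP in the patch-corrected fit. Of 10 mesenchymal genes 8 were tested, 7 were higher and 0 were called, with Cdh2, the neural cadherin, at 1.86 ± 0.79. Of these, S100a4 and Axl passed the filter only with the Ptn_VP64 arrays. All 19 epithelial genes were tested, 18 were higher, and the patch-corrected fit called 4 of 16 higher and 0 lower, beside 2.5% of all genes called higher. Of the 19, Ovol1 passed the filter only with the Ptn_VP64 arrays. The 4 called were Ocln (1.72 ± 0.27) and Cldn7 (2.94 ± 0.65), of tight junctions, Esrp2 (1.28 ± 0.21), an epithelial splicing factor, and Pkp2 (1.04 ± 0.20), of desmosomes. Their adjusted p in that fit ran from 0.00454 to 0.041. Ocln had a mean level of -1.88 in EGFP, 0.30 in Ptn_VP64, 0.23 in Ptn_DEL and 0.31 in Ptn_Delta, so its difference from EGFP was shared by all TALE groups. In the same order Cldn7 had -0.20, 2.70, 1.63 and 0.77, and Esrp2 had -2.17, -0.48, -1.72 and -0.64. Pkp2 had 2.36, 3.63, 3.50 and 3.29. The calls of Cldn7 and Pkp2 were lost without EGFP replicate 2 or 4 or Ptn_VP64 replicate 1 or 3, and that of Cldn7 also without Ptn_DEL replicate 2, 3 or 4 or Ptn_Delta replicate 3 or 4, with adjusted p of up to 0.156 and 0.105.

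Markers of other cell types were read beside these genes. Of 15 primitive endoderm markers 12 were tested, 7 were higher with a median of 0.34, and the patch-corrected fit called Col4a1, Col4a2 and Dab2, an adaptor protein (adjusted p = 0.0438, kept in 5 of 16 cases). The first 2 of these also count among the collagens. Of 10 trophoblast markers 8 were tested and all 8 were higher, with a median of 2.37, although Esx1 passed the filter only with the Ptn_VP64 arrays, and Rhox6, a homeobox gene, was called (2.86 ± 0.60, adjusted p = 0.0292, lost without EGFP replicate 2 or 4 or Ptn_VP64 replicate 3). The summed trophoblast level ran from 12.9 to 34.1 on Ptn_VP64 arrays and from 3.30 to 13.5 on EGFP arrays. Of 7 endothelial markers 3 were tested, and Pecam1 fell by 1.06 ± 0.21 (adjusted p = 0.0183, lost without Ptn_VP64 replicate 1 or 3). Pecam1 and Kdr were well above background on all 16 arrays, Tek on 14, Esam on 2, Cdh5 on 1, and Tie1 and Emcn on 0. Of the 14 ES cell markers 10 were lower, with a median of -0.55 and 0 called. Over all genes, the patch-corrected fit called 2.5% higher and 0.897% lower in Ptn_VP64 than in EGFP. The part of these lists in the levels of Col1a1 and Col1a2 was not tested.

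**Figure D4:**
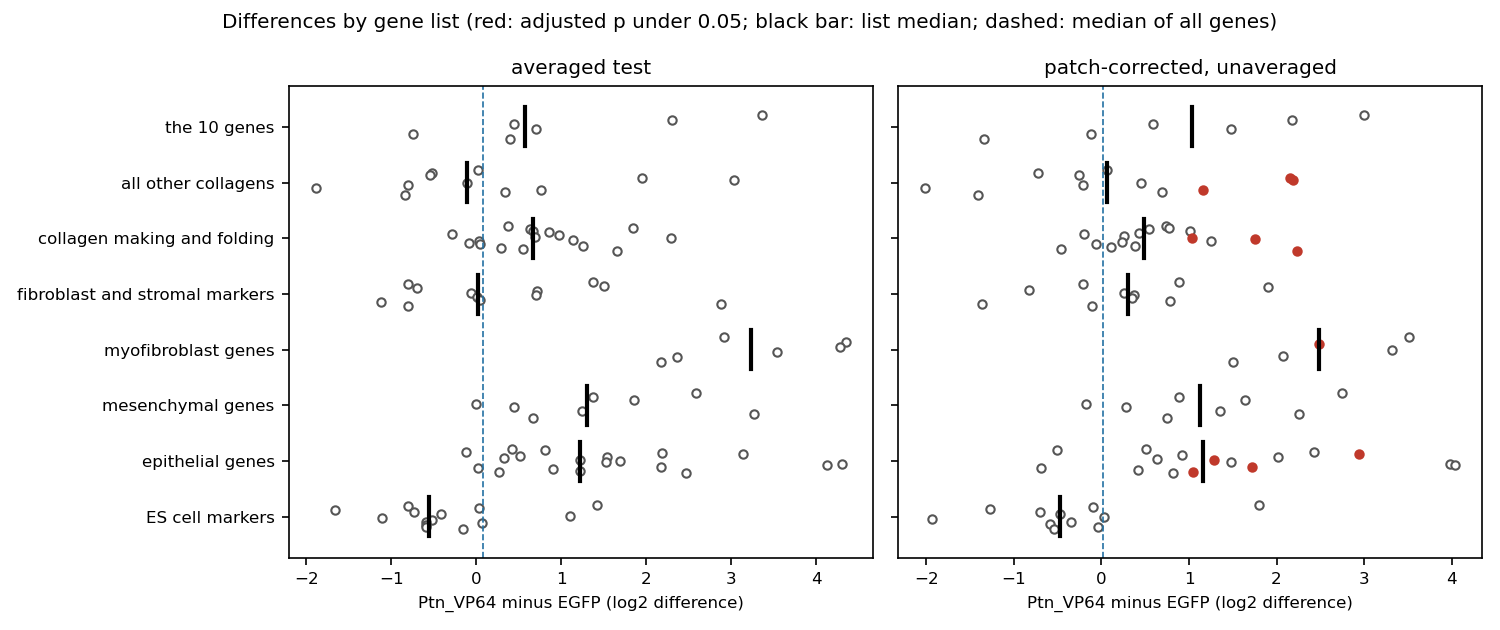
Log2 differences of Ptn_VP64 minus EGFP (horizontal) for each tested gene of 8 lists (vertical), in the averaged test and in the patch-corrected fit; red points had an adjusted p under 0.05, black bars are list medians and the dashed line is the median of all genes. The fibroblast list has its median at 0.02 in the averaged test, and the myofibroblast list at 3.23.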

How the data were processed

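Each array was read from its deposited scanner file. Intensity values are processed signals, background-subtracted and on some arrays detrended, made by the authors with Agilent Feature Extraction 11.5.1.1, per the file headers. A deposited series table holds log2 values of the same arrays from the authors and was used as an alternative. Detrending for a multiplicative surface had been applied on 9 of the 16 arrays, per the file headers, and the others hold many dim spots at a shared lowest value. The level is log2 of the signal minus log2 of the array's 75th percentile. Control spots and spots marked as non-uniform or population outliers were left out. Of 55681 probes, 27650 had 1 gene symbol, and symbols were updated through the RefSeq table of GRCm38.p6. A probe had to be well above background on at least 4 of 16 arrays, and each gene was represented by its probe with the highest mean.

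Because 2 of the 4 arrays of a group are technical repeats that are not identified, the averaged test fitted limma 3.58.1 (R 4.3.3) to the pair means in each of the 3 pairings, kept the largest p and applied the Benjamini-Hochberg adjustment over all genes at 0.05. The patch-corrected fit subtracted the median shift in a window of 21 by 21 spots, dropped spots whose shift lay over 1 log2 unit off that of the whole array, needed 2 arrays in every group and held slide as a term. The limma-type moderated test was checked on simulated arrays. There the averaged test recovered the sizes of the changes but called none, and a fit of unaveraged arrays made calls. The simulated arrays held no patches and no technical repeats, so the patch correction and its p-values were not checked. The members and all gene lists were chosen with earlier results of these data known. Named genes are the 10 members, up to 4 genes of each other list with the smallest p, every gene of a list called in a comparison described, and the 3 genes most like a member measured on 14 arrays. Alternatives were the scaling, the background correction, the filter, the choice of probe, marked spots, the slide, the replicate number as a block and leaving out each array.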

Additional observations from a re-analysis of the deposited data

Results flagged for a closer look

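Of 40 groups of 4 arrays examined (10 genes in 4 groups), 4 held an array whose gap to the nearest of the others was above Dixon's 95% critical value for the share of the group's range, and chance gives about 1 in 20. Col5a2 read -4.69 on Ptn_VP64 replicate 1, below the other 3 arrays of its group at -3.39 to -3.15. Col5a2 read -2.51 on Ptn_DEL replicate 2, above the others at -4.91 to -4.59, and -1.11 on Ptn_Delta replicate 2, above the others at -5.23 to -4.76. Dcn read -1.54 on Ptn_DEL replicate 2, above the others at -3.97 to -3.60. None of these 4 spots was well above background, and the cause was not tested.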

How the results depend on the processing

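A difference of a member was counted as reversed where its sign changed and its unadjusted p was under 0.05 in the test as reported or in the alternative. This held for Thy1 in Ptn_VP64 minus EGFP, at -1.34 in the patch-corrected fit, and for Col3a1 in Ptn_VP64 minus Ptn_DEL, at 0.75 with the replicate block. Sign changes of any kind, these included, came to 60 of 534 values over the other settings, 15 of 72 with a slide alone, and 36 and 29 of 576 when each array was left out of the averaged test and the patch-corrected fit. Some were large: over the settings Thy1 ran from -1.26 to 1.24 in Ptn_DEL minus EGFP and from -1.03 to 1.53 in Ptn_Delta minus EGFP, and on the slides alone Col1a1 was -2.09 and 0.93 in Ptn_Delta minus EGFP and Col5a1 -0.85 and 2.47 in Ptn_VP64 minus Ptn_Delta. The count of genes called rested on the setting. For Ptn_VP64 minus EGFP it was 0 in the averaged test, 2 with patch correction, 5 with arrays unaveraged, 49 with the replicate number as a block as well, 375 in the patch-corrected fit and 676 with patch correction and the replicate block. In the same order it was 0, 1, 1, 2, 97 and 244 against Ptn_DEL, and 0, 1, 4, 1, 80 and 243 for Ptn_VP64 minus Ptn_Delta. For Ptn_DEL minus EGFP the last 2 settings gave 8 and 16, and for Ptn_Delta minus EGFP 3 and 11.

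With arrays left out in turn, the averaged test called 0 to 1 genes for Ptn_VP64 minus EGFP. The patch-corrected fit called 145 to 352, with 145 without Ptn_VP64 replicate 3 and 177 without Ptn_VP64 replicate 1. It called 0 to 14 for Ptn_DEL minus EGFP, 0 to 13 for Ptn_Delta minus EGFP, 14 to 105 for Ptn_VP64 minus Ptn_DEL, 8 to 98 for Ptn_VP64 minus Ptn_Delta and 0 to 2 for Ptn_DEL minus Ptn_Delta. The difference of Col1a1 from EGFP stayed between 2.79 and 3.94 in the averaged test and between 2.29 and 3.36 in the patch-corrected fit, and that of Col1a2 between 1.15 and 3.47 in the averaged test.

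The replicate numbers do not mark shared cultures in the labels. Same-numbered arrays of different groups had correlations of their deviations from -0.10 to 0.38, and from -0.05 to 0.58 after patch correction, and 11 and 13 of 16 arrays correlated best with their own number, as a hint from the data. With the replicate block and patch correction 1 member, Col1a1, was called against EGFP (3.00 ± 0.48, adjusted p = 0.00574, limma), where 6.12% of genes were called. It was also called against Ptn_DEL (3.13 ± 0.48, adjusted p = 0.00925, 2.21% of genes called) and against Ptn_Delta (3.16 ± 0.53, adjusted p = 0.0149, 2.2% of genes called). Of the 21 other list genes called against EGFP, 20 were called with the block, and P4ha1 was not (adjusted p = 0.0766). Col1a2 in Ptn_Delta minus EGFP was -0.39 with the block. Precision is limited by signal over background, since 8 of 16 Col1a1 spots and 9 of 16 Col1a2 spots were not well above it.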
